A study of Mus musculus with 14 samples.

Results

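The genes described here are the 9 receptors and SMAD factors of the BMP and activin branch of the TGF-β superfamily, Bmpr2, Acvr2a, Acvr2b, Bmpr1a, Acvr1, Acvr1b, Smad1, Smad5 and Smad6, in mouse splenic T cells. They were chosen by symbol, and all 9 were among the 24091 genes of the counts. T cells (200000 per sample) were sorted from the spleens of 8 Mir142+/+BCR-ABL mice (CP CML, the chronic phase model) and 6 Mir142-/-BCR-ABL mice (BC CML, the blast crisis model), and their RNA was sequenced. The study used C57Bl/6j males and females of 6 to 10 weeks, and all mice here carried the SCLtTA/BCR-ABL transgenes, in which Scl regulatory sequences drive the tetracycline transactivator in blood stem and progenitor cells. BCR-ABL had been switched on by removing tetracycline for 3 weeks. Mir142 was deleted in the whole animal and not in T cells alone, and every mouse was leukemic, so the comparison addresses the loss of Mir142 in leukemic mice. The sample names carry 1 shared number for all CP CML mice and another for all BC CML mice. What these numbers stand for is not given in the sources used here, and whatever they mark cannot be told apart from genotype.

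BMPs, activins and their relatives signal through pairs of receptor kinases. A type II receptor (BMPR2, ACVR2A or ACVR2B) binds the ligand together with a type I receptor (BMPR1A, ACVR1 or ACVR1B) and phosphorylates it, and the type I receptor then phosphorylates SMAD proteins, which enter the nucleus with SMAD4. BMPR1A and ACVR1 act on SMAD1 and SMAD5, ACVR1B acts on SMAD2 and SMAD3, and SMAD6 inhibits the BMP side of the pathway. In T cells, activin and BMP receptors have been studied in thymic development and in helper and regulatory T cell differentiation.

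Mir142, the deleted gene, gave 302 to 650 reads per CP CML library, and all 6 BC CML libraries had 0 reads for it. The locus yields 2 mature microRNAs, whose sequences are shown because the seed (bases 2 to 8, in capitals) determines which sites in messenger RNAs they can pair with. They are read from RefSeq on GRCm38.p6, at chr11:87756867-87756887 and chr11:87756903-87756925, both on the plus strand.
miR-142a-5p: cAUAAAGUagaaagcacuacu
miR-142a-3p: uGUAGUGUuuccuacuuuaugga

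The transcript strand of the longest annotated 3′UTR of each gene (GENCODE on mm10) was searched for sites that pair with these seeds. A full match of 8 letters (8mer) is ACTTTATA for miR-142a-5p and ACACTACA for miR-142a-3p, and a partial match (7mer) lacks the first or the last of those letters. A partial match inside a full one was not counted again. Of the 9 genes, 5 held at least 1 match (Bmpr2, Acvr2a, Bmpr1a, Smad1 and Smad5). Among tested genes, 23.5% held a full or partial match to miR-142a-5p and 12.1% to miR-142a-3p. The longest 3′UTR of tested genes had a median of 1187 bases, while those of the 5 genes had 2041 (Smad1) to 8529 (Bmpr2). The count was not compared at equal length. Full matches were found in Bmpr2 and Acvr2a. These full matches are shown in 30 bases of their 3′UTR, with the match in capitals (7 letters that pair with the seed, then the A that lies opposite base 1 of the microRNA), at chr1:59876559-59876566 in Bmpr2 and at chr2:48901393-48901400 and chr2:48901465-48901472 in Acvr2a, all on the plus strand.
Bmpr2, miR-142a-5p: agcattataagACTTTATAaaagtgagctg
Acvr2a, miR-142a-5p: tccatacattaACTTTATAaacttctacgt
Acvr2a, miR-142a-3p: taagacatcagACACTACAttttacatata

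The type II receptor genes differed in what their 3′UTRs held. The 3′UTR of Bmpr2 is 8529 bases long and had 3 matches, all to miR-142a-5p, or 0.352 per kilobase. The 3′UTR of Acvr2a is 3481 bases long and had 4 matches, 2 to each microRNA, or 1.149 per kilobase. Its full matches to the 5p and 3p arms started 1605 and 1677 bases after the stop codon. Over all 11509 tested genes with an annotated 3′UTR the rate was 0.282 matches per kilobase, a full match to miR-142a-5p was present in 5.22% of them and a full match to miR-142a-3p in 3.04%. The density in Bmpr2 was thus near that of all tested genes, and that in Acvr2a was the highest of the 9 genes.

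The other matches were 7mers. Bmpr1a had 2 to miR-142a-5p, Smad5 had 1 to each arm, and Smad1 had 1 to miR-142a-5p that ended 8 bases before the end of its 3′UTR. At least 1 full or partial match to miR-142a-5p was found in 23.5% of tested genes and to miR-142a-3p in 12.1%. The tested genes with such a match had a median 3′UTR of 2387 bases for miR-142a-5p and 2521.5 for miR-142a-3p. None of these letters was found in the searched window of Acvr1 (1105 bases), Acvr1b (2822 bases), Acvr2b (1534 bases) or Smad6 (448 bases). The windows of Acvr2b and Smad1 stopped 7153 and 3182 bases short of the gene ends in the counts, so that further transcribed sequence may not have been searched. A match is a run of letters and was not tested as a site.

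**Figure D1:**
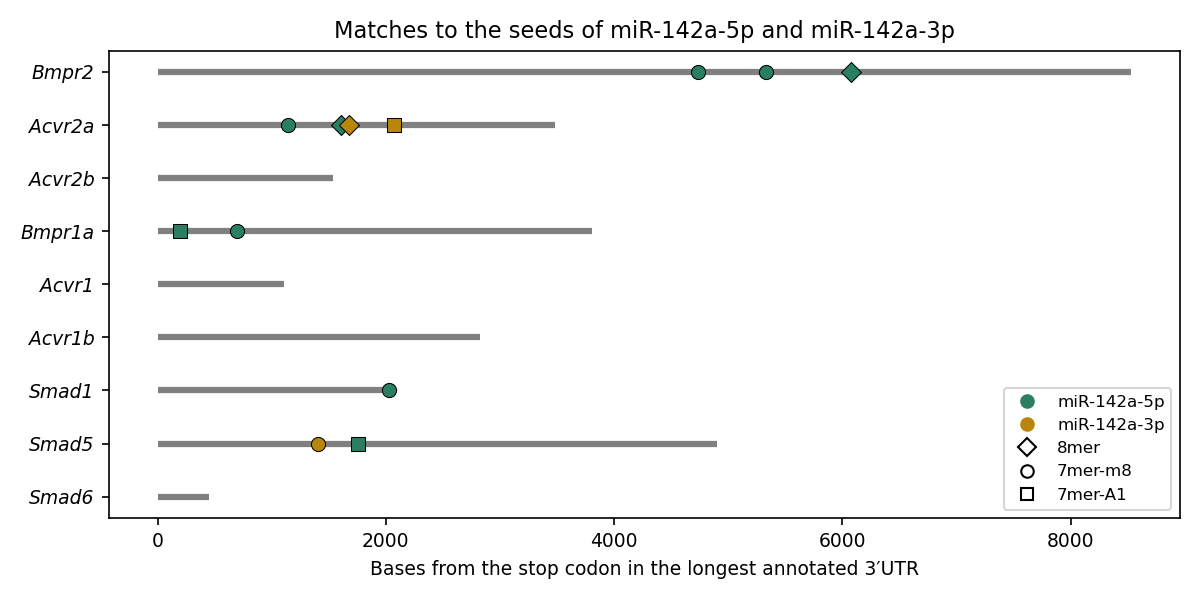
Matches to the seeds of the 2 mature miR-142 microRNAs along the longest annotated 3′UTR of each gene. Each grey line is a 3′UTR drawn to scale in bases from the stop codon, each marker is the first base of a match, its colour gives the microRNA and its shape the kind of match. Full matches (diamonds) are in Bmpr2 and Acvr2a, and 4 genes (Acvr2b, Acvr1, Acvr1b and Smad6) have no marker.

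The libraries held 15703702 to 19914531 reads in genes, and 12248 genes passed the filter on low counts and were tested. Levels are counts-per-million values (CPM) after TMM scaling, and differences were tested in edgeR's quasi-likelihood framework, with p-values adjusted by the Benjamini-Hochberg method over all tested genes and a threshold of 0.05. Of the 9 genes, 8 were tested. In BC CML T cells 6 of them were higher (Bmpr2, Acvr2a, Acvr2b, Bmpr1a, Acvr1 and Smad5) and 2 were lower (Acvr1b and Smad1). The transcriptome as a whole differed widely, since 32.6% of all tested genes were called higher and 32.7% lower. A change of at least 2-fold was less common, with 10.1% of tested genes called higher by that much and 2.87% lower, and it was found for 5 of the 8 genes upward (Bmpr2, Acvr2a, Acvr1, Bmpr1a and Acvr2b) and for 0 downward. In all 8 genes the mice of the groups did not overlap, which held for 19.3% of tested genes with BC CML above and for 17.6% with BC CML below. The median log2 fold change of the 8 genes was 1.23, beside -0.0083 for all tested genes.

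**Figure D2:**
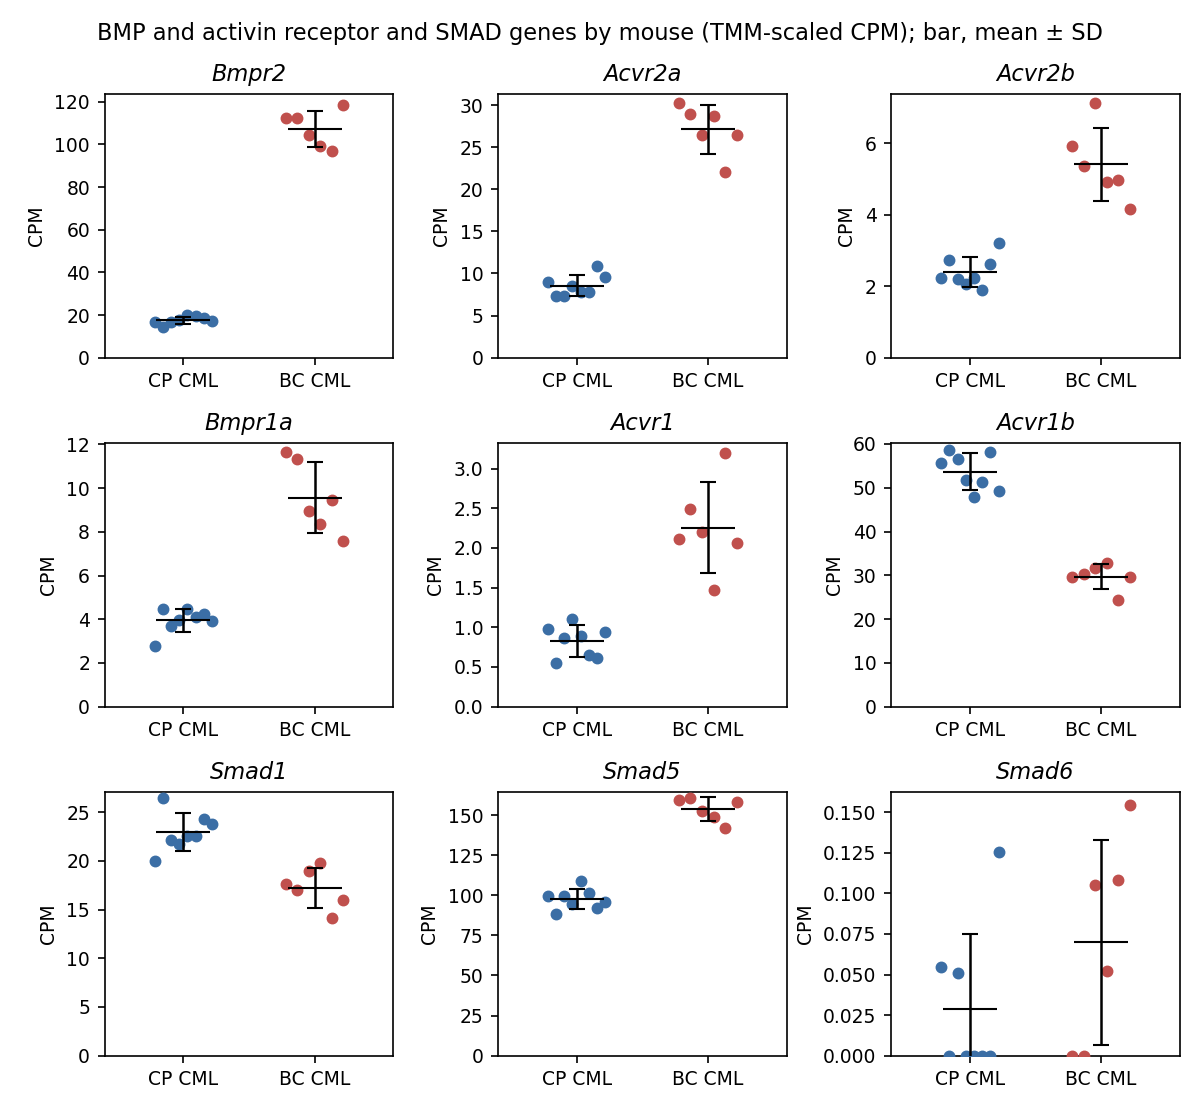
Level of each of the 9 genes in each mouse. The vertical axes are TMM-scaled CPM on a linear scale from 0, each point is 1 mouse (8 CP CML, blue, and 6 BC CML, red), and bars are the mean ± SD. The groups do not overlap in any panel except Smad6, which rests on 0 to 3 reads per library.

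The largest difference was in a type II receptor. Bmpr2 (chr1:59764279-59878081, plus strand), the main type II receptor for BMPs, had a lowest, median and highest level of 14.6, 17.5 and 19.8 CPM in CP CML and of 96.7, 108.4 and 118.6 CPM in BC CML. The lowest BC CML mouse was far above the highest CP CML mouse, and the spread within each group was small beside the gap. The means were 17.6 ± 1.67 CPM (SD, n = 8) and 107.3 ± 8.55 CPM (SD, n = 6), a 6.09-fold difference (log2 fold change 2.61 ± 0.064 SE, adjusted p = 9.86e-16 in edgeR's quasi-likelihood test). By p-value Bmpr2 ranked 9 among all tested genes.

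Acvr2a (chr2:48814109-48903264, plus strand) encodes a type II receptor that binds activins and several BMPs. Its levels ran from 7.27 over a median of 8.20 to 10.9 CPM in CP CML and from 22.1 over a median of 27.6 to 30.2 CPM in BC CML. Every BC CML mouse had more than the highest CP CML mouse, by a clear margin. The difference was 3.18-fold (log2 fold change 1.67 ± 0.092 SE, adjusted p = 4.63e-11 in edgeR's quasi-likelihood test). Acvr2a and Orc4, a gene on the opposite strand, share 511 bases in the coordinates of the counts, and the strand setting of the counting was not given, so reads of the pair may not be separated there.

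Acvr2b (chr9:119402178-119442148, plus strand), the close relative of Acvr2a, had a lower level per kilobase in both groups. CP CML mice had 1.89 to 3.21 CPM with a median of 2.23, and BC CML mice had 4.17 to 7.14 CPM with a median of 5.17. The groups were again separate, but the values rested on 35 to 51 reads per library in CP CML and 81 to 136 in BC CML. Acvr2b was 2.26-fold higher (log2 fold change 1.18 ± 0.14 SE, adjusted p = 1.41e-06 in edgeR's quasi-likelihood test). Genes annotated on the opposite strand overlap Acvr2b as well, and they are not in the counts.

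The type I receptors moved in both directions, and with the naive T cell marker score as a covariate, described further on, none of the 3 kept its call. In that fit the log2 fold changes were 1.04 for Bmpr1a (adjusted p = 0.0881 in edgeR's quasi-likelihood test), 0.71 for Acvr1 (adjusted p = 0.4934) and -0.48 for Acvr1b (adjusted p = 0.126). Bmpr1a (chr14:34411068-34502546, minus strand), a type I receptor for BMPs, had 2.78 to 4.46 CPM with a median of 4.03 in CP CML and 7.56 to 11.6 CPM with a median of 9.23 in BC CML. All CP CML mice but the lowest lay close together, and none reached the BC CML range. It was 2.42-fold higher in BC CML (log2 fold change 1.28 ± 0.12 SE, adjusted p = 5.93e-08 in edgeR's quasi-likelihood test). The annotation places Gm17110, which is not in the counts, on the opposite strand of Bmpr1a.

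Acvr1 (chr2:58446438-58566828, minus strand), also known as Alk2, is a type I receptor for BMPs and for activin. It had 0.55 to 1.10 CPM with a median of 0.88 in CP CML, from 9 to 22 reads per library, and 1.46 to 3.20 CPM with a median of 2.16 in BC CML, from 28 to 59 reads. The groups did not overlap, but this gene had the fewest reads of the 8 tested and the widest error. It was 2.70-fold higher (log2 fold change 1.43 ± 0.20 SE, adjusted p = 6.96e-06 in edgeR's quasi-likelihood test). A protein-coding gene, Gm17409, is annotated over Acvr1 on the opposite strand and is not in the counts, so its reads could fall to Acvr1 if strand was not used.

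Acvr1b (chr15:101174125-101212601, plus strand), the type I receptor for activin also known as Alk4, was lower in BC CML. Its levels ran from 47.8 over a median of 53.8 to 58.6 CPM in CP CML and from 24.3 over a median of 30.04 to 32.7 CPM in BC CML. No BC CML mouse reached the lowest CP CML mouse. The level fell by 44.6% (log2 fold change -0.85 ± 0.066 SE, adjusted p = 3.73e-09 in edgeR's quasi-likelihood test).

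Smad1 and Smad5, receptor-regulated SMADs of the BMP side, went opposite ways in the main fit. With the naive T cell marker score as a covariate Smad1 was at -0.021 on the log2 scale and was not called (adjusted p = 0.97 in edgeR's quasi-likelihood test). Smad5 (chr13:56703010-56742378, plus strand) had 88.5 to 108.9 CPM with a median of 97.8 in CP CML and 141.8 to 160.8 CPM with a median of 155.4 in BC CML. It was 1.57-fold higher (log2 fold change 0.65 ± 0.045 SE, adjusted p = 7.73e-10 in edgeR's quasi-likelihood test), the most precise of the 8 estimates. Smad1 (chr8:79338398-79399468, minus strand) had 19.97 to 26.5 CPM with a median of 22.6 in CP CML and 14.1 to 19.8 CPM with a median of 17.3 in BC CML. The highest BC CML mouse lay just under the lowest CP CML mouse, so that Smad1 had the smallest gap of the 8 genes. It fell by 24.8% (log2 fold change -0.41 ± 0.077 SE, adjusted p = 0.00015 in edgeR's quasi-likelihood test).

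Smad6 (chr9:63953076-64022059, minus strand), the inhibitory SMAD that BMP signals commonly induce, was barely detected. It gave 0 to 2 reads per library in CP CML, with 5 of 8 libraries at 0, and 0 to 3 reads in BC CML, with 2 of 6 at 0. A count of 0 still allows up to 3 reads, so no difference was detectable at this depth. Smad6 did not pass the filter on low counts, and in a fit without that filter it was tested and not called.

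**Figure D3:**
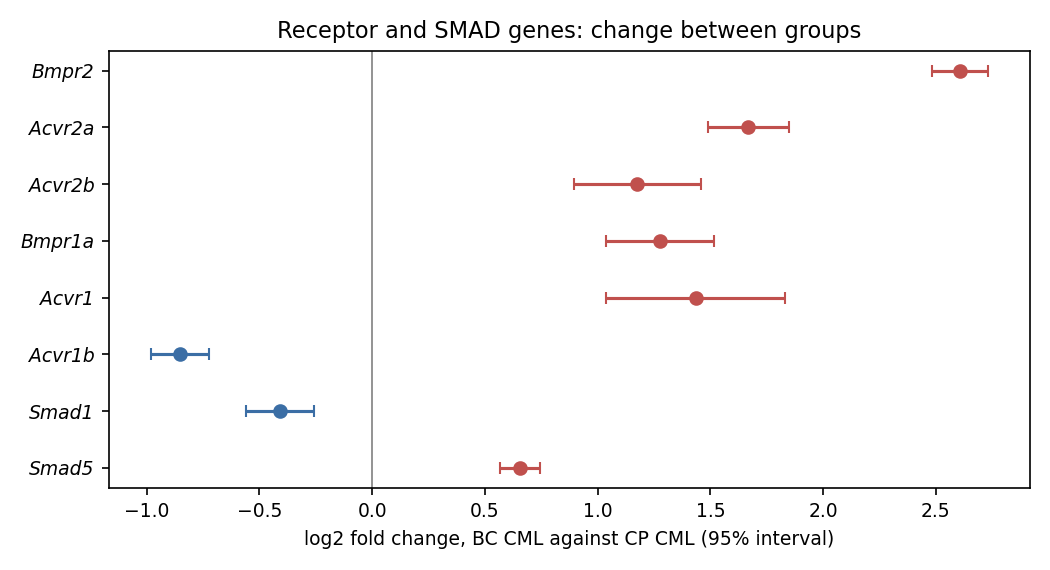
Log2 fold change of the 8 tested genes in BC CML against CP CML. The horizontal axis is the log2 fold change from edgeR's quasi-likelihood fit, points are estimates and bars their approximate 95% intervals, with genes higher in BC CML in red and lower in blue. Bmpr2 stands apart at 2.61, and the intervals of Acvr1b and Smad1 lie below 0.

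Levels of different genes were compared as CPM per kilobase of the gene length in the counts. In CP CML the order was Acvr1b (16.4 ± 1.27 CPM per kilobase, SD, n = 8), Smad5 (13.2 ± 0.845), Smad1 (4.49 ± 0.382), Bmpr2 (1.59 ± 0.151), Acvr2a (1.46 ± 0.212), Bmpr1a (0.71 ± 0.098), Acvr1 (0.25 ± 0.060) and Acvr2b (0.23 ± 0.041), with Smad6 last. Acvr1b was above Smad5 in 7 of 8 mice. Bmpr2 was above Acvr2a, and Acvr1 above Acvr2b, in 5 of 8 mice, and the means of these neighbours lay within about 1 SD of each other. In BC CML Smad5 was first (20.8 ± 1.00 CPM per kilobase, SD, n = 6), followed by Bmpr2 (9.68 ± 0.773), Acvr1b (9.09 ± 0.890), Acvr2a (4.63 ± 0.492), Smad1 (3.37 ± 0.401), Bmpr1a (1.72 ± 0.294), Acvr1 (0.69 ± 0.174) and Acvr2b (0.51 ± 0.096). There Acvr2a was above Smad1 in 6 of 6 mice, Acvr1 above Acvr2b in 5 of 6, and Bmpr2 above Acvr1b in 4 of 6, the last pair with means within 1 SD of each other. By mean level Bmpr2 was thus at rank 4 in CP CML and rank 2 in BC CML, and Acvr1b at rank 1 and rank 3.

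Summed on this scale, the 3 type II receptors rose from 3.27 ± 0.297 to 14.8 ± 1.10 CPM per kilobase, while the 3 type I receptors went from 17.4 ± 1.23 to 11.5 ± 0.776. The composition of both classes differed between the groups, given here as a description without a test. Bmpr2 made up 48.7 ± 3.72% of the type II sum in CP CML and 65.4 ± 2.24% in BC CML, and Acvr2a made up 44.4 ± 3.18% and 31.2 ± 2.06%. Acvr1b made up 94.4 ± 0.779% of the sum of the 3 type I receptors in CP CML and 79.0 ± 3.84% in BC CML. It was thus the most abundant of these 3 in both groups. The share of Bmpr1a in that sum was 4.11 ± 0.669% in CP CML and 15.0 ± 2.43% in BC CML. The share of Acvr1 was 1.46 ± 0.401% and 6.05 ± 1.94%. Acvrl1, another type I receptor, had 5.399 ± 0.604 CPM per kilobase in CP CML and 2.382 ± 0.285 in BC CML. Its mean was above those of Bmpr1a and Acvr1 in both groups, and it fell. The shares therefore describe the 3 genes summed and not all type I receptors. Smad1 contributed 25.4 ± 2.55% of the Smad1 and Smad5 sum in CP CML and 13.97 ± 1.43% in BC CML.

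Whether related genes changed by different amounts was tested on the log2 ratio of their CPM within each mouse, which does not depend on how libraries are scaled. The test was a two-sided exact permutation test over the 3003 ways to split 14 mice into 8 and 6, with adjustment over 4 pairs. For Smad1 over Smad5, the mean log2 ratio was -2.09 ± 0.190 in CP CML and -3.15 ± 0.168 in BC CML, and the mice did not overlap (difference -1.07, exact p = 0.000333, the smallest these splits can give, adjusted p = 0.000666). With the naive T cell marker score as a covariate the log2 fold changes were -0.021 for Smad1 and 0.47 for Smad5, which lie closer together. The difference of Acvr1b over Tgfbr1, the type I receptors for activin and for TGF-β that act on the same SMADs, was larger still. Its ratio was -0.52 ± 0.163 in CP CML and -2.16 ± 0.146 in BC CML, again without overlap (difference -1.63, exact permutation p = 0.000333, adjusted p = 0.000666). With the naive T cell marker score as a covariate the log2 fold change of Acvr1b was -0.48 and was not called, and the ratio was not refitted. Acvr2a rose more than Acvr2b, with ratios of 1.79 ± 0.240 and 2.31 ± 0.278 (difference 0.52, exact permutation p = 0.00333, adjusted p = 0.00444), but 1 BC CML mouse lay within the CP CML range. With the naive T cell marker score as a covariate the log2 fold changes of the genes were 1.89 for Acvr2a and 1.90 for Acvr2b, so that the larger rise of Acvr2a was not seen in that fit. The ratio of Bmpr1a to Acvr1 was 2.13 ± 0.464 in CP CML and 2.05 ± 0.346 in BC CML, and no difference was found (difference -0.082, exact permutation p = 0.722, adjusted p = 0.722). The wide spread of that ratio goes with the low read counts of Acvr1.

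**Figure D4:**
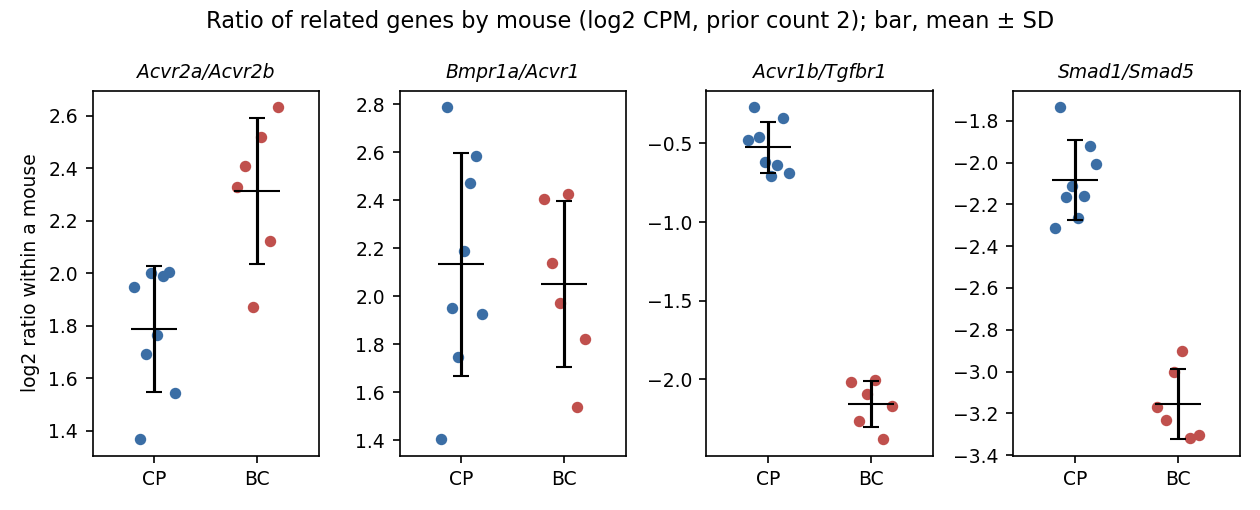
Log2 ratio of related genes within each mouse. The vertical axes are log2 CPM differences between the genes named above each panel (not starting at 0), points are mice (8 CP CML, blue, and 6 BC CML, red) and bars are the mean ± SD. The groups are separate for Acvr1b/Tgfbr1 and Smad1/Smad5 and overlap for Acvr2a/Acvr2b and Bmpr1a/Acvr1.

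The 3 genes whose pattern was nearest to that of Bmpr2 over the 14 mice, by Euclidean distance of centred log2 CPM among all tested genes, were 2510009E07Rik (distance 0.599), Ckb (0.616) and Bag3 (0.728). 2510009E07Rik went from 5.75 to 33.4 CPM, Ckb, the brain-type creatine kinase, from 9.65 to 59.9 CPM, and Bag3, a co-chaperone of heat shock proteins, from 6.63 to 36.3 CPM. This distance follows the size of the group difference and the scatter of the mice around it.

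The other genes of the pathway were read from the same fit. Of 30 ligand genes, 3 passed the filter, and Bmp7, a BMP ligand, was called higher (10.96 to 15.6 CPM, log2 fold change 0.50 ± 0.069 SE, adjusted p = 4.66e-06 in edgeR's quasi-likelihood test). Gdf11 (0.19 ± 0.116 SE, adjusted p = 0.163) and Amh (0.33 ± 0.259 SE, adjusted p = 0.27) did not pass the test. Inhba, the activin A subunit gene, which was singled out after its values were seen, did not pass the filter, with 0 to 9 reads per library in CP CML and 6 to 37 in BC CML. Most ligand genes were therefore too low in these cells to be compared.

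Among 15 other receptor and co-receptor genes, 9 were tested, 2 were called higher and 5 lower, and their median log2 fold change was -0.21. Rgmb, a BMP co-receptor, fell from 11.3 to 4.399 CPM (log2 fold change -1.36 ± 0.11 SE), and Acvrl1, a type I receptor for BMP9 and BMP10 also known as Alk1, fell from 20.4 to 8.99 CPM (-1.18 ± 0.090 SE). Tgfbr1 rose by 0.78 ± 0.042 SE on the log2 scale. Tgfbr2, the type II receptor for TGF-β, and Tgfbr3, its co-receptor, had log2 fold changes of -0.21 ± 0.041 SE and -0.45 ± 0.089 SE. In these counts the type II receptor of the TGF-β side thus moved opposite to the 3 type II receptors of the BMP and activin side. For the same genotypes the paper reports the other direction for Tgfbr2. It was higher in BC CML by Q-RT-PCR in bone marrow and spleen T cells and by Western blot in spleen T cells.

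Of 12 other SMADs and partners, 10 were tested, with 3 higher, 3 lower and a median log2 fold change of 0.013. Smad3, which the activin and TGF-β receptors act on, rose from 106.6 to 198.5 CPM (log2 fold change 0.90 ± 0.043 SE), and Smad2, its partner on that side, fell by 0.23 ± 0.042 SE. Xiap, which links BMP receptors to the TAK1 kinase, rose by 0.38 ± 0.071 SE, Smad7, the other inhibitory SMAD, fell by 0.37 ± 0.074 SE, and Zfyve16, an endosomal adaptor for SMADs, rose by 0.25 ± 0.056 SE. In the main fit, then, Smad1 and Smad5 differed in direction, and so did Smad2 and Smad3. With the naive T cell marker score as a covariate Smad1 was not called (-0.021), and values of Smad2 and Smad3 in that fit are not given here.

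Of 27 inhibitor genes, 15 were tested, with 7 higher, 5 lower and a median log2 fold change of 0.18. Ctdsp2 and Ctdsp1, phosphatases that act on SMADs, fell by 1.37 ± 0.076 SE and 0.33 ± 0.034 SE, and Ski, a SMAD co-repressor, fell by 0.39 ± 0.046 SE. Smurf2, a ubiquitin ligase for receptors and SMADs, rose by 0.93 ± 0.079 SE, and Twsg1, a secreted BMP-binding protein, rose by 0.59 ± 0.066 SE. The inhibitors thus showed no single direction.

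Of 17 known targets of the pathway, 10 were tested, with 7 higher, 2 lower and a median log2 fold change of 0.64. The 5 with the lowest p-values were all higher. Id2, an inhibitor of E proteins that also marks activated T cells, rose from 139.1 to 353.0 CPM (log2 fold change 1.34 ± 0.055 SE). Hey1, a transcriptional repressor that Notch signals also induce, rose by 2.04 ± 0.218 SE from 0.78 to 3.25 CPM, Runx2, a transcription factor best known from bone, by 0.56 ± 0.065 SE, Lmo2, a cofactor of blood progenitors, by 1.96 ± 0.279 SE and Klf10, an early TGF-β response gene, by 0.55 ± 0.115 SE. Among the other targets tested, Id1, a classical BMP target, was called higher by 0.79 ± 0.247 SE (adjusted p = 0.0093 in edgeR's quasi-likelihood test) but stayed under 1.31 CPM, and Id3, its relative, was called lower by 0.46 ± 0.163 SE (adjusted p = 0.0204). Id1 and Id3 were singled out after their values were seen, as the remaining tested members of the Id family on the list.

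The RNA levels of cell type markers differed between the groups as well, and in bulk samples fewer cells of a type and less RNA per cell cannot be told apart. The T cell markers were abundant in every library, with a summed level of 3918 to 4563 CPM over 10 genes in CP CML and 4903 to 5215 in BC CML. All 7 naive T cell markers were lower in BC CML (summed 4890 to 6238 CPM against 2683 to 3852), and 6 of 7 markers of activated or memory T cells were higher (771.3 to 978.2 against 1315 to 1531). Of the 10 T cell markers 4 were called higher, 2 lower and 4 were not called. Among them Cd4 fell by 0.73 and Cd8a rose by 0.87 on the log2 scale, while Cd8b1, the other CD8 chain, was not called (0.069). Of 4 regulatory T cell markers Foxp3 and Ctla4 were lower, Ikzf2 was higher and Il2ra was not called. Markers of other cells moved with the groups too. Of 12 myeloid markers 11 were higher (summed 85.3 to 469.0 CPM against 574.1 to 1402), of 6 B cell markers 5 (33.3 to 125.1 against 63.5 to 361.8) and of 4 NK cell markers all 4 (116.9 to 149.0 against 355.8 to 495.3). Eomes had the highest mean level of the NK cell list, with 77.6 CPM in CP CML and 256.7 in BC CML. The paper also lists Eomes as a marker of CD8 central memory T cells, so the NK cell sum is not specific to NK cells. Erythroid markers (15.2 to 62.9 against 41.4 to 71.7), megakaryocyte markers (3.31 to 5.82 against 2.71 to 6.27) and stromal and endothelial markers (144.6 to 181.6 against 132.9 to 185.1, mostly Pecam1, with Cdh5, Col3a1 and Cxcl12 near 0) overlapped between groups.

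With the mean log2 level of the myeloid markers as a covariate, all 8 receptor and SMAD genes kept their calls, with Bmpr2 at 2.62, Acvr2a at 1.63 and Acvr1b at -0.80. With the mean log2 level of the naive T cell markers as a covariate, Bmpr2 (2.49, adjusted p = 4.75e-07 in edgeR's quasi-likelihood test), Acvr2a (1.89, adjusted p = 0.000513), Acvr2b (1.90, adjusted p = 0.0068) and Smad5 (0.47, adjusted p = 0.0358) were still called. Bmpr1a (1.04, adjusted p = 0.0881 in edgeR's quasi-likelihood test), Acvr1 (0.71, adjusted p = 0.4934), Acvr1b (-0.48, adjusted p = 0.126) and Smad1 (-0.021, adjusted p = 0.97) were not. The naive T cell score itself did not overlap between groups, at 9.07 to 9.35 in CP CML and 8.18 to 8.70 in BC CML, so this fit rests on little variation within groups. The myeloid score did not overlap either, at 1.44 to 4.11 in CP CML and 4.45 to 5.36 in BC CML. The myeloid fit therefore cannot fully separate that score from the group. The part of NK and B cells in these differences was not tested.

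**Figure D5:**
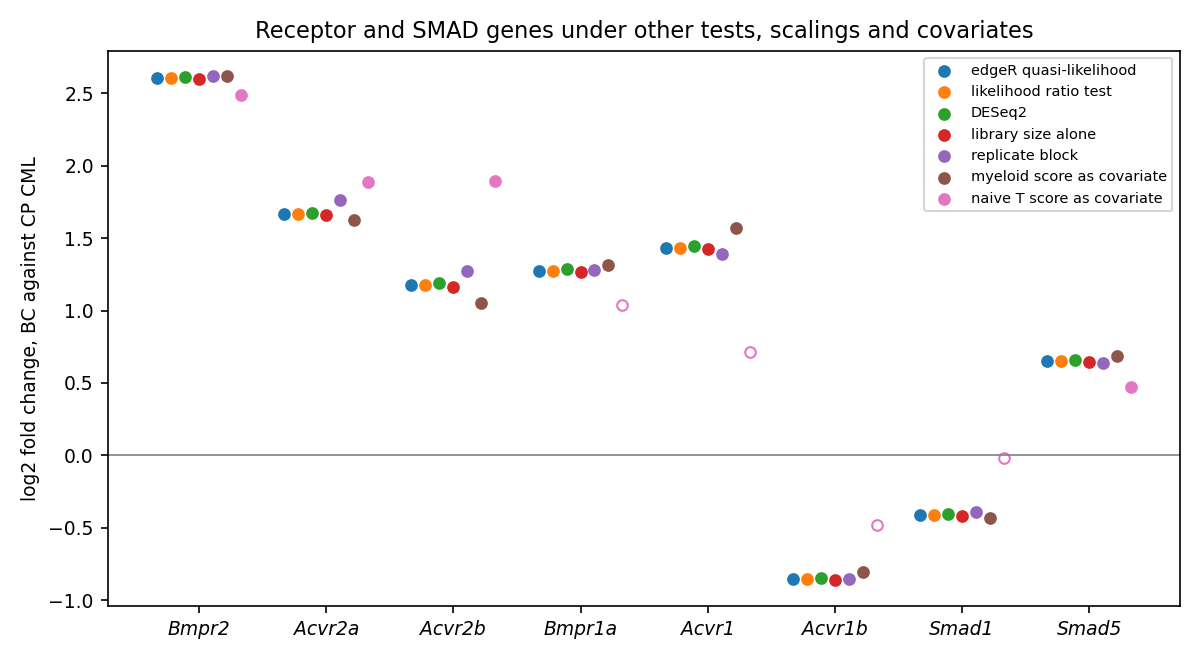
Log2 fold change of the 8 tested genes in BC CML against CP CML under 7 fits. Colours give the test, scaling, block or covariate, filled points passed an adjusted p of 0.05 and open points did not. The estimates lie close together except with the naive T cell score, where Bmpr1a, Acvr1, Acvr1b and Smad1 are open and Smad1 is at -0.021.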

How the data were processed

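RNA from sorted splenic T cells of 14 mice was sequenced from Kapa mRNA HyperPrep libraries as paired reads of 101 bases. Per the labels and the study's methods, the authors trimmed adapters (Trimmomatic) and poly(A) tails (FASTP), mapped reads to mm10 with STAR 2.6.0 and counted them with HTSeq 0.11.1. The deposited file holds raw counts per gene with gene length and coordinates. The gene annotation and the strand setting of the counting are not given in the sources used here. Reads of overlapping genes are therefore uncertain.

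Groups were taken from the sample titles. Counts were filtered with filterByExpr, scaled by TMM and fitted with edgeR 4.0.16 in R 4.3.3 (robust quasi-likelihood), with Benjamini-Hochberg adjustment over 12248 genes at 0.05. Log2 levels for ratios used a prior count of 2. Of 5 planned ratios, Smad6 over Smad7 is not given, since Smad6 had at most 3 reads in any library. Also tried were edgeR's likelihood ratio test, DESeq2 1.42.0, other scalings and filters, the replicate number as a block, marker scores as covariates and leaving out each mouse. No pair of libraries of a group agreed within sampling noise (chi-square per degree of freedom 2.99 or more). Depth was 15703702 to 19914531 reads per library, and intervals for counts cover counting error only.

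The genes and gene lists were chosen with earlier results of these data known. Pathway genes named are the up to 5 of each list with the lowest p-values, plus the second gene of each ratio, the 3 genes nearest to Bmpr2 and those said to be chosen after their values were seen. Of 16 symbols searched for other receptors and co-receptors, 15 are listed in the counts. The remaining symbol is a second name of a gene that is listed. MicroRNA sequences are from RefSeq (GRCm38.p6), and 3′UTRs are from GENCODE vM21 on mm10.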

Additional observations from a re-analysis of the deposited data

Results flagged for a closer look

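Within groups, the lowest or highest mouse was compared with the rest by its gap to the nearest mouse as a share of the group's range, with Dixon's critical value at 95%. Of 33 groups of values examined, 3 were past it, and chance alone gives about 1 in 20, or 1.65. Bmpr1a in CP CML replicate 1 was the lowest, with 2.78 CPM beside 3.68 in the next mouse (gap share 0.533). Smad6 in CP CML replicate 8 was the highest at 0.126 CPM beside 0.0546 (gap share 0.566), which rests on 2 reads. The total read count of BC CML replicate 2 was the lowest of its group, with 16145537 reads beside 18319039 (gap share 0.668). Without CP CML replicate 1 or BC CML replicate 2, 6 of the receptor and SMAD genes were still called higher and 2 lower.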

How the results depend on the processing

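The main fit called 7986 genes, and 6 higher and 2 lower among the receptor and SMAD genes. Leaving out each of the 14 mice gave 7721 to 7966 genes and always 6 and 2. With the likelihood ratio test, DESeq2, RLE factors, library size alone, other filters or the replicate block the counts were 7280 to 8719 genes, with 6 and 2 in each. The myeloid score gave 4633 genes, with 6 and 2. The naive T cell score gave 1579 genes, of which 63.0% were higher against about even numbers otherwise, with 4 called higher and 0 lower. Bmpr1a, Acvr1, Acvr1b and Smad1 were the genes no longer called. The cause was not tested. The replicate numbers belong to different mice and do not pair them: deviations of same-numbered mice correlated between -0.27 and 0.36 (mean -0.024), and 2 of 6 were best matched with their own number. With the replicate block 7280 genes were called and Bmpr2 was at 2.62. The difference between groups in the log2 ratio of Bmpr1a to Acvr1 ranged from -0.186 to 0.0206 without each mouse and changed sign without CP CML replicate 2 (0.0116) and without BC CML replicate 5 (0.0206). The other ratios kept their direction and their call without each mouse and with a prior count of 0.5. They were not refitted with the marker scores. With all annotated 3′UTRs in place of the longest, 5 genes held a match, as before. Smad6 (3 reads at most) and Acvr1 (9 reads at least) are limited by depth.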

Other observations

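Sostdc1, a secreted BMP antagonist singled out after its values were seen, had 0.55 to 3.82 CPM in CP CML and 5.55 to 19.3 CPM in BC CML, without overlap (log2 fold change 2.51 ± 0.391 SE, adjusted p = 4.74e-05 in edgeR's quasi-likelihood test). The means were 1.59 ± 1.07 CPM (SD, n = 8) and 8.98 ± 5.20 CPM (SD, n = 6).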
